A study of Homo sapiens with 6 samples.

Results

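ISG15 and the enzymes that attach it to proteins and remove it were examined in BHT101 cells given an SK4 plasmid. The group held the modifier gene ISG15, the activating enzyme gene UBA7, the conjugating enzyme gene UBE2L6, the ligase gene HERC5, its paralog HERC6 and the protease gene USP18. They were chosen by gene symbol, and all 6 were found among the 32896 genes of the deposited table. BHT101 is an established human line from an anaplastic thyroid carcinoma, and SK4 is the calcium-activated potassium channel KCa3.1, encoded by KCNN4. The cells were transfected with an SK4 overexpression plasmid (n = 3 libraries) or a control plasmid (n = 3 libraries), each with a lipid reagent, and were harvested after 48 h. Every library therefore came from plasmid-transfected cells of 1 line, and untransfected cells were not analysed here. The series asked which genes and splicing events change with SK4. Whether the 3 libraries of each group were separate cultures is not stated in the labels, and their spread, on which every p-value rests, may be technical.

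ISG15 is a ubiquitin-like protein built of tandem ubiquitin folds, and type I interferon is its best known inducer. It is joined to target proteins by a chain of enzymes like that of ubiquitin: UBA7 (the E1) activates it, UBE2L6 (the E2) carries it, and HERC5 (the E3) transfers it, largely to newly made proteins at the ribosome. USP18 cleaves it off again and, apart from that activity, binds the interferon receptor chain IFNAR2 and dampens interferon signalling. In mouse, which lacks HERC5, HERC6 is the main ligase for ISG15. These genes are induced through the interferon-stimulated response element (ISRE), a DNA site bound by a complex that contains STAT2 and IRF9.

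The promoters of the modifier and of the ligase genes are shown because they differ in matches to this site near the RefSeq start. RefSeq promoter windows (GRCh38.p14, 250 bases before the transcript start and 50 after it) were found for 4 of the 6 genes, namely ISG15, HERC5, HERC6 and UBE2L6. Each window was searched on both strands for the ISRE core GAAANNGAAA, whose reverse complement is TTTCNNTTTC. The 160 bases before the start are printed 5′ to 3′ on the strand of the gene, with every match in capitals. ISG15 lies at chr1:1013337-1013496 (plus strand), HERC5 at chr4:88456959-88457118 (plus strand) and HERC6 at chr4:88378692-88378851 (plus strand).
ISG15: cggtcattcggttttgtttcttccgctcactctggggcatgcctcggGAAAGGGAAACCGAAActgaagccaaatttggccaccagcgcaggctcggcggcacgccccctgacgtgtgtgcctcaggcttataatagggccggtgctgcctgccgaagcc
HERC5: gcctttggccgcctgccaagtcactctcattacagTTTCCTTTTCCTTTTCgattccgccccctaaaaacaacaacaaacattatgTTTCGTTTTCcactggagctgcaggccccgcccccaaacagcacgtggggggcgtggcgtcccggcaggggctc
HERC6: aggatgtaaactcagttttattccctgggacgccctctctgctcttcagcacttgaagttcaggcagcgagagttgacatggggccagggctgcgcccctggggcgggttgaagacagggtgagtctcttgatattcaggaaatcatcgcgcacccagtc

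The ISG15 window held 2 matches on the strand of the gene. They overlap each other and span positions -113 to -98 from the start. The HERC5 window held 3 matches, all on the opposite strand. The first 2 of them overlap and span positions -125 to -110, and the third spans -74 to -65. No match to these letters was found in the HERC6 window or in either of the UBE2L6 windows. Both UBE2L6 windows, however, lie inside its gene model in the GENCODE annotation, which starts further upstream, at 57568284 on the minus strand. The HERC6 model starts at 88378739, within the sequence printed above. Sequence upstream of these GENCODE starts was therefore searched only in part for HERC6 and not at all for UBE2L6. Over 35116 RefSeq promoter windows of the same length, 3.57% held at least 1 match and 0.259% held 2 or more. A match describes letters only, and no binding was measured.

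The libraries held an estimated 29700000 to 38400000 fragments, and control replicate 3 was the shallowest. KCNN4 was at 147.7 to 184.1 FPKM in the SK4 libraries, against 8.26 to 8.52 FPKM in the control libraries. FPKM is the number of fragments per kilobase of gene per 1000000 fragments. Of the epithelial markers, all 6 were present in every library, with KRT19 at 217.4 FPKM or more, while all 7 thyroid follicular markers, thyroglobulin (TG) among them, were below 1 FPKM throughout. Of the leukocyte markers, 4 of 5 were below 1 FPKM, with CD14 the exception, and PTPRC did not exceed 0.01 FPKM. The markers CLEC4C and LILRA4 of plasmacytoid dendritic cells, which secrete interferon, summed to 0.01 to 0.03 FPKM in the SK4 and to 0 to 0.02 FPKM in the control libraries. Control replicate 3 and SK4 replicate 2 stood apart from the other libraries. Among the fifth of tested genes with the lowest GC content, the median gene of control replicate 3 was 0.29 lower on the log2 scale than the mean of the other control libraries, and that of SK4 replicate 2 was 0.21 lower than the mean of the other SK4 libraries. In the fifth with the highest GC content these medians were 0.023 and 0.053. Results that rest on these libraries are given with and without them.

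The 6 genes spanned more than 2 orders of magnitude in level, in the same order by mean in both groups. ISG15 was the 37th most abundant of the 32896 genes by its mean of 848.4 FPKM over the 6 libraries, and made up 0.281% to 0.291% of the FPKM total in the SK4 and 0.263% to 0.268% in the control libraries. UBE2L6 followed at a mean of 61.2 FPKM (rank 691), then HERC5 at 19.3 FPKM (rank 2135) and USP18 at 16.3 FPKM (rank 2456). UBA7 and HERC6 came last, at 5.47 FPKM (rank 5381) and 4.03 FPKM (rank 6362). Neighbours in this order kept it in 6 of 6 libraries, except HERC5 and USP18. HERC5 exceeded USP18 in 4 libraries, while USP18 was marginally the higher in SK4 replicate 2 and control replicate 3, so the levels of these neighbours did not differ beyond the spread. UBA7 was 1.17 to 1.58 times as high as HERC6. Levels set between genes depend on the gene lengths the authors used, which are not given in the sources used here.

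**Figure D1:**
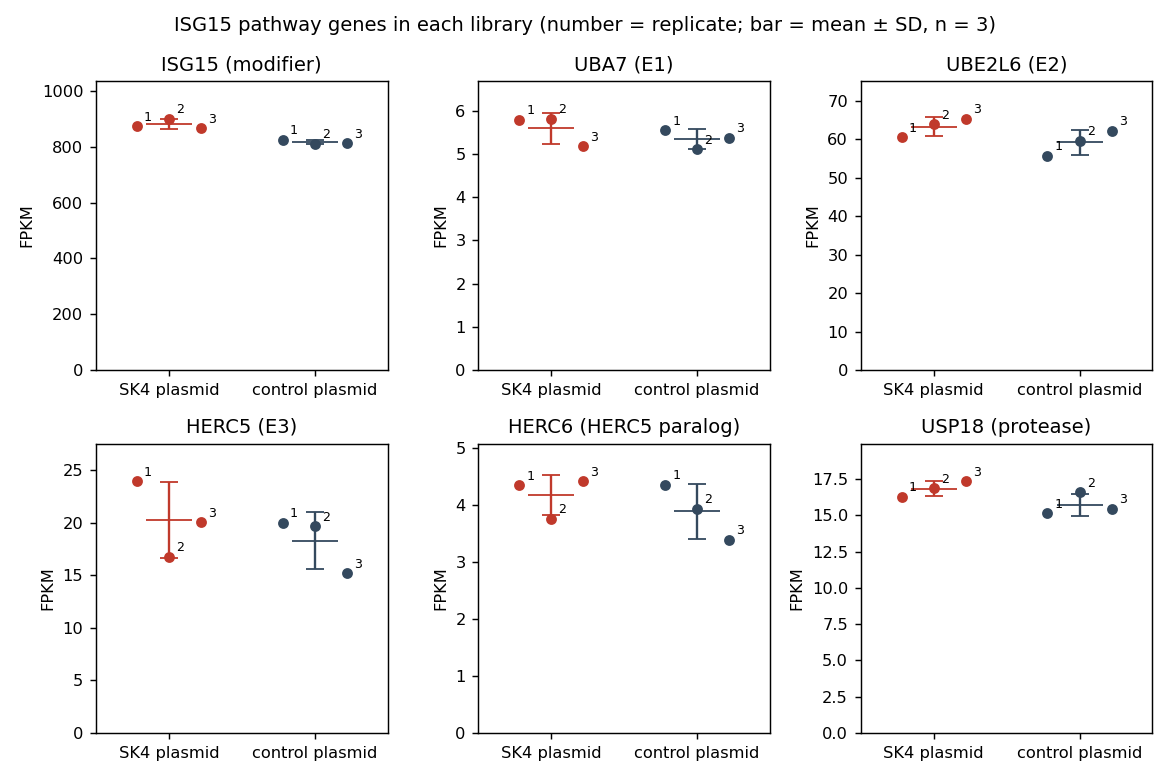
FPKM of each of the 6 genes (one panel each, linear axis from 0) in the 3 SK4 and the 3 control libraries, with each point numbered by replicate and bars for mean ± SD. ISG15 is the only one of the 6 whose 3 SK4 values all lie above its 3 control values, as in 3.53% of all tested genes. HERC5 and HERC6 have their lowest control point in replicate 3 and their lowest SK4 point in replicate 2.

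ISG15, the modifier itself, had 874.2, 900.1 and 866 FPKM in SK4 replicates 1 to 3, against 825.5, 811.5 and 812.6 FPKM in control replicates 1 to 3. All SK4 values lay above all control values, as in 3.53% of all tested genes. The gap between the groups was larger than the range within either, and how many other genes had such a gap was not counted. The means were 880.1 ± 17.8 FPKM in the SK4 and 816.6 ± 7.76 FPKM in the control libraries (SD, n = 3 each). The fitted difference was 7.77% (log2 fold change 0.11, SE 0.027; 95% confidence interval 1.03-fold to 1.13-fold) and did not pass over all genes (limma, adjusted p = 0.99997). In bulk libraries, more cells with the transcript and more transcript per cell cannot be told apart. An exact permutation test (two-sided) gave p = 0.1, and no smaller p is possible with 3 against 3. Only 2.01% of the tested genes varied less within groups than ISG15, which had a within-group SD of 0.023 on the log2 scale, and an estimated 22711 to 31340 fragments lay behind each value. Without control replicate 3 the difference was 7.51%, and 6.31% once SK4 replicate 2 was left out as well. ISG15 (ENSG00000187608) spans 1001138 to 1014540 of chromosome 1, plus strand, in GRCh38 (GENCODE 29), whose model also holds a start far upstream of the RefSeq start used above.

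UBA7, the E1 that commits ISG15 to conjugation, had 5.79, 5.81 and 5.18 FPKM in the SK4 libraries, against 5.55, 5.11 and 5.37 FPKM in the control libraries. The groups overlapped, with SK4 replicate 3 below 2 of the 3 controls. The fitted difference was 4.21% (log2 fold change 0.059, SE 0.067; limma, adjusted p = 0.99997), and its interval of 0.935-fold to 1.16-fold included no change. Without control replicate 2 the log2 fold change was 0.030, and without SK4 replicate 3 it was 0.11. UBA7 was the least abundant enzyme of the human chain, and UBA1, the main E1 of ubiquitin, was 8.84 to 9.77 times as high in the SK4 and 9.40 to 10.2 times as high in the control libraries. UBA7 (ENSG00000182179) spans 49805207 to 49813946 of chromosome 3, minus strand, and its exons contain the microRNA gene MIR5193 on the same strand, whose reads cannot be told apart from it.

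UBE2L6, the E2, had 60.5, 63.98 and 65.4 FPKM in the SK4 libraries, against 55.8, 59.6 and 62.2 FPKM in the control libraries. The groups overlapped because control replicate 3, its highest control, exceeded SK4 replicate 1. The fitted difference was 6.90% (log2 fold change 0.096, SE 0.051; interval 0.984-fold to 1.16-fold; limma, adjusted p = 0.99997). Without control replicate 3 the log2 fold change was 0.13 and 0.12 once SK4 replicate 2 was also left out, while without control replicate 1 it was 0.055, and none of these passed. UBE2L6 stood at 10.5 to 12.6 times the level of its E1 in the SK4 and 10.1 to 11.7 times in the control libraries. Its paralog UBE2L3, which serves ubiquitin, was at 32.02 ± 0.813 FPKM in the SK4 and 31.9 ± 1.03 FPKM in the control libraries, so UBE2L6 was the more abundant of the pair in 6 of 6 libraries. UBE2L6 (ENSG00000156587) spans 57551656 to 57568284 of chromosome 11, minus strand.

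HERC5, the human ISG15 ligase, had 23.9, 16.8 and 20.03 FPKM in the SK4 libraries, against 20, 19.7 and 15.2 FPKM in the control libraries. The groups overlapped widely, with the highest value in SK4 replicate 1 and the lowest in control replicate 3. The fitted difference of 10.03% was the largest among the 6 genes and also the least certain (log2 fold change 0.14, SE 0.15; interval 0.867-fold to 1.40-fold; limma, adjusted p = 0.99997). HERC5 varied more within groups than 93.7% of the tested genes, with an SD of 0.23 on the log2 scale. Without control replicate 3 the log2 fold change was 0.014, without SK4 replicate 1 it was 0.013, without SK4 replicate 2 it was 0.26, while leaving out control replicate 3 together with SK4 replicate 2 gave 0.14. HERC5 (ENSG00000138646) spans 88457117 to 88506163 of chromosome 4, plus strand.

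HERC6, next to HERC5 on the same strand at 88378739 to 88443111 of chromosome 4 (ENSG00000138642), had 4.34, 3.76 and 4.41 FPKM in the SK4 libraries, against 4.35, 3.93 and 3.39 FPKM in the control libraries. Control replicates 1 and 2 lay within the SK4 range, and control replicate 3 was the lowest of all. The fitted difference was 6.60% (log2 fold change 0.092, SE 0.10; interval 0.905-fold to 1.26-fold; limma, adjusted p = 0.99997). Without control replicate 3 the log2 fold change was 0.0079, without control replicate 1 it was 0.17, and with control replicate 3 and SK4 replicate 2 both left out it was 0.073. HERC5 was 4.46 to 5.51 times as high as HERC6 in the SK4 and 4.48 to 5.01 times in the control libraries. HERC3, the third gene of the family at this locus, was listed at no more than 0.01 FPKM. In GENCODE 29 its exons share 459 nt with those of another protein-coding gene on the same strand. How reads common to both were counted is not given in the sources used here, so the HERC3 value may be too low. The large HERC genes HERC1 and HERC2 were at 0.4 to 0.73 and at 1.51 to 1.65 FPKM over all libraries. HERC2 had 1.58, 1.58 and 1.51 FPKM in the SK4 libraries, against 1.59, 1.65 and 1.61 FPKM in the control libraries. Its SK4 values thus lay wholly below, as in 1.81% of all tested genes (log2 fold change -0.042, SE 0.073; limma, adjusted p = 0.99997).

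USP18, the protease that removes ISG15, had 16.3, 16.9 and 17.3 FPKM in the SK4 libraries, against 15.2, 16.6 and 15.4 FPKM in the control libraries. Control replicate 2 exceeded SK4 replicate 1, and the other control values lay below all SK4 values. The fitted difference was 6.80% (log2 fold change 0.095, SE 0.051; interval 0.983-fold to 1.16-fold; limma, adjusted p = 0.99997). ISG15 stood at 49.97 to 53.7 times the level of USP18 in the SK4 and 48.9 to 54.5 times in the control libraries, so this ratio of modifier to protease overlapped between the groups. USP41, a near-identical copy of USP18 on the same chromosome, was at 0.13 to 0.27 FPKM, and reads shared between the copies make both values uncertain. USP18 (ENSG00000184979) spans 18149899 to 18177397 of chromosome 22, plus strand.

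Seen as a group, 0 of the 6 genes were called, where 0.00898% of the 11139 tested genes were called (limma, adjusted p below 0.05), a single gene, KCNN4. All 6 were above 1 FPKM in all 6 libraries and so passed the filter on low values. At an unadjusted p below 0.05 there was 1 of the 6, ISG15, against 1.65% of all tested genes in either direction and 1.06% in the higher direction. This count was 0 with the libraries scaled to the same median or with a constant prior variance, and 3 with library weights. In these fits 212, 220 and 905 of the 11139 tested genes lay below that p, against 184 in the main fit. Likewise in 1 of the 6, again ISG15, the lowest SK4 value exceeded the highest control value, as in 3.53% of all tested genes, and in 0 of the 6 the SK4 values lay wholly below, as in 1.81%. The log2 fold change was positive for 6 of 6, against 57.9% of all tested genes, with a median of 0.096 beside 0.011 over all tested genes. The 6 values lay between 0.059 and 0.14, and members that vary together across libraries do not count separately. For the 5 genes other than ISG15 the exact permutation p (two-sided, on FPKM) was 0.2 to 0.6. All 6 confidence intervals lay inside 1.5-fold in either direction, as did those of 96.8% of the tested genes.

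**Figure D2:**
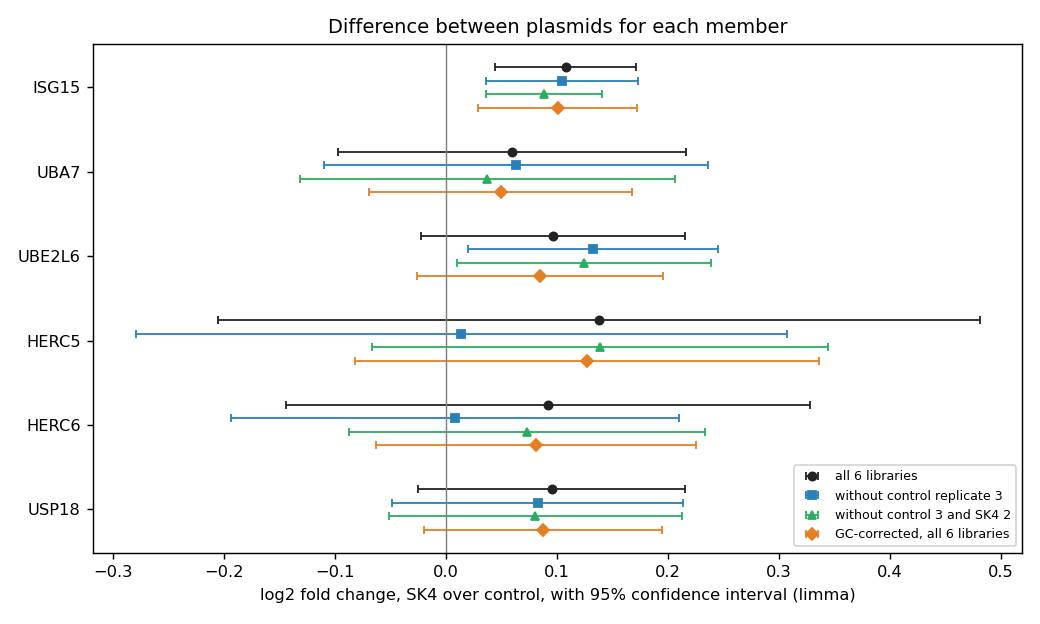
Log2 fold change (SK4 over control) of each gene with its 95% confidence interval from limma, for all 6 libraries, for the fits without 1 or both of the libraries that stood apart, and after a correction for GC content. The point for ISG15 stays between 0.088 and 0.11, while those of HERC5 and HERC6 lie near 0 without control replicate 3.

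Across single libraries the 6 genes followed different patterns. HERC5 and HERC6 were low together in the libraries that stood apart. In SK4 replicate 2, HERC5 was 0.38 and HERC6 0.19 below the mean of the other SK4 libraries on the log2 scale. In control replicate 3, HERC5 was 0.37 and HERC6 0.25 below the mean of the other controls. In the same libraries ISG15 deviated by 0.049 and -0.010, UBE2L6 by 0.025 and 0.11, UBA7 by 0.078 and 0.011, and USP18 by 0.0061 and -0.037. The other genes thus did not share the dip of the HERC genes. The HERC5 and HERC6 transcripts had the lowest GC content of the 6, at 44.1% and 46.3%, against 63.4% for ISG15, 58.3% for UBA7, 57.2% for UBE2L6 and 51.6% for USP18 (longest GENCODE 29 transcript; median of the tested genes 49.7%). After a correction for GC content, the within-group SD of HERC5 was 0.14 in place of 0.23, and that of HERC6 0.080 in place of 0.14. That of the median tested gene was 0.069 in place of 0.095. The part of GC recovery in the HERC values was otherwise not tested. The log2 fold changes after the correction were 0.13 for HERC5, 0.081 for HERC6 and 0.10 for ISG15, none of them called.

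**Figure D3:**
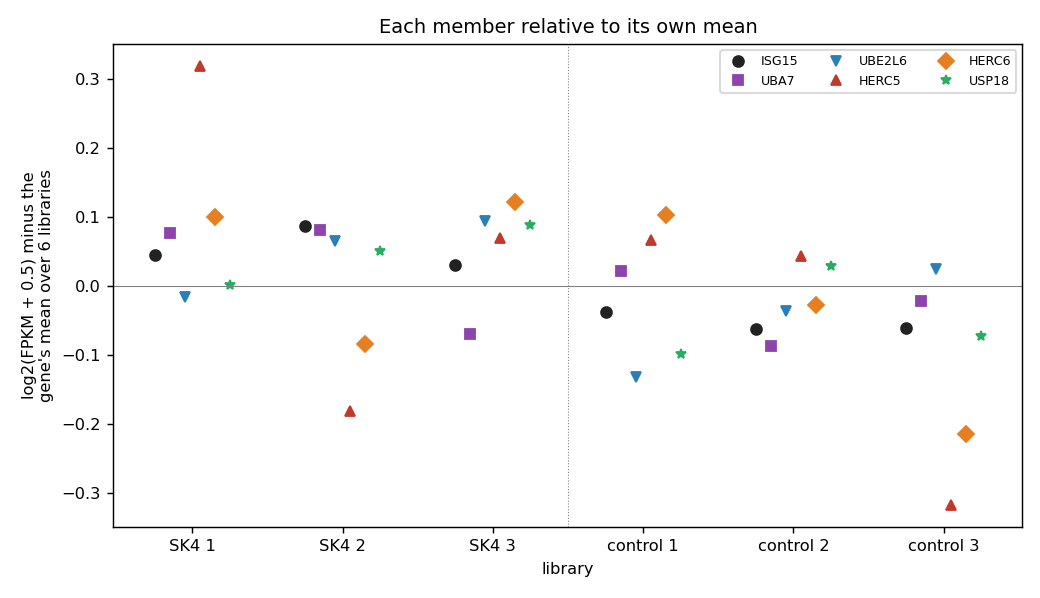
Log2(FPKM + 0.5) of each gene minus its own mean over the 6 libraries, by library, with SK4 libraries on the left and control libraries on the right. HERC5 and HERC6 dip in SK4 replicate 2 and control replicate 3, while ISG15 lies above 0 in all SK4 libraries and below 0 in all control libraries.

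The genes whose pattern over the 6 libraries was most like that of each member were ranked by Pearson's r on the log2 scale among 9523 protein-coding genes. With 6 points and so many genes, very high values arise readily, and they are given as a description. For ISG15 these were ATG2A (r = 0.998), NXN (0.985) and TNIP1 (0.985), and for UBA7 ARHGAP45 (0.997), IKBKG (0.997) and TCN2 (0.990). For UBE2L6 they were FXR2 (0.990), the ferritin heavy chain gene FTH1 (0.980) and POLM (0.971), and for USP18 EXT1 (0.998), TXNDC12 (0.993) and POFUT2 (0.991). For HERC5 they were ANKRD28 (0.998), ROCK2 (0.998) and PPP1R12A (0.996), a subunit of myosin phosphatase. Their GC content was 41.6%, 39.9% and 39.1%. For HERC6 they were KIAA1586 (0.996), AP3D1 (0.993) and ARHGEF3 (0.992), with a GC content of 34.8%, 59.2% and 43.6%.

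ISG15 was also set beside the other ubiquitin-like modifiers, which are attached by enzyme chains of the same type. Only UBD (FAT10), a further cytokine-induced modifier, was at a similar level, with 923.2, 821.3 and 937.3 FPKM in the SK4 libraries, against 871.1, 910.7 and 838.6 FPKM in the control libraries. The UBD groups overlapped. ISG15 was below UBD in 5 of the 6 libraries and above it in SK4 replicate 2. Per length, ISG15 stood at 1.76 to 1.82 times the ubiquitin gene UBB in the SK4 and 1.60 to 1.75 times in the control libraries. UBB is made of near-identical ubiquitin repeats, and reads shared with other ubiquitin genes make its level uncertain. SUMO2 averaged 48.3 FPKM over all libraries, and NEDD8 11.8 FPKM. Of the 14 other modifier genes, all tested, 0 were called, 6 had a positive and 8 a negative log2 fold change, and the median was -0.0027. The 9 other E1 genes had a median of -0.0040, with 2 positive and 0 called.

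**Figure D4:**
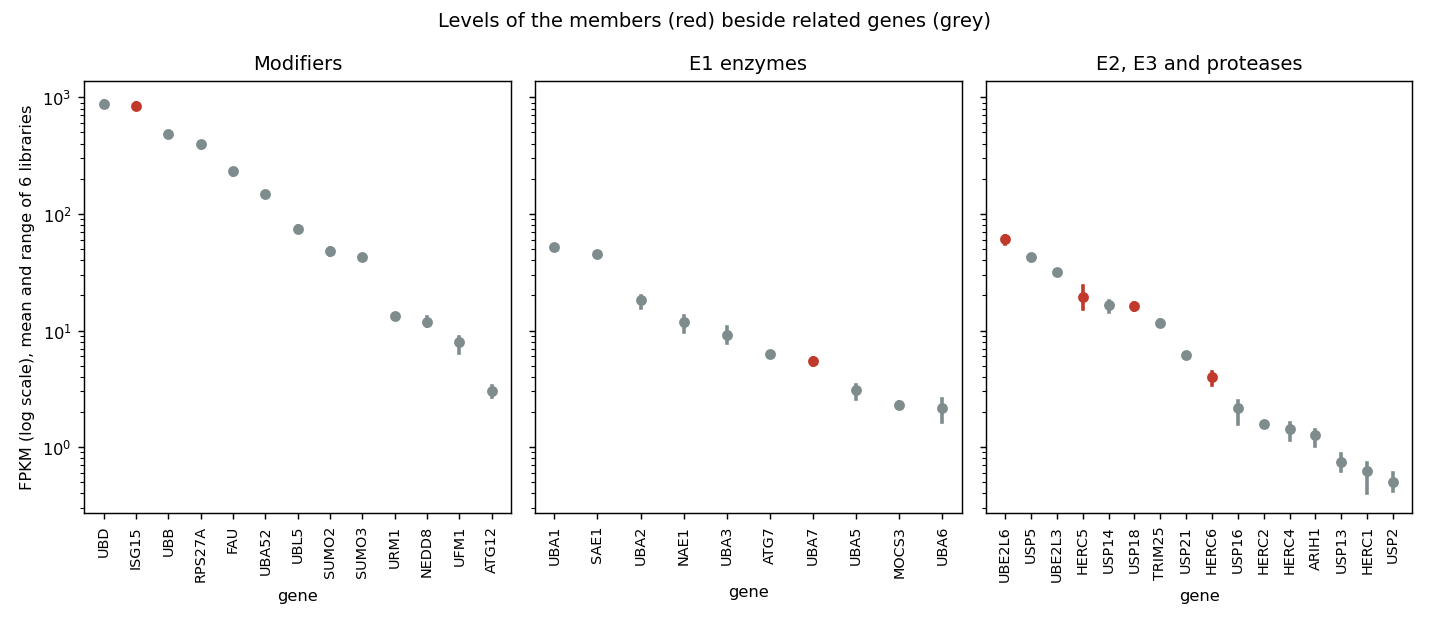
Mean FPKM (points, log axis) and range over the 6 libraries (bars) of selected modifier genes, E1 enzyme genes, and E2, E3 and protease genes, with ISG15 and its enzymes in red and related genes in grey. ISG15 and UBD lead the modifiers, UBA7 sits in the lower part of the E1 enzymes, and UBE2L6 leads the third panel.

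Other enzymes reported to act on ISG15 were not called. Of the 8 accessory ligase and protease genes, 6 were tested and 0 were called, with 5 positive and a median log2 fold change of 0.020. TRIM25, an interferon-induced ligase for ubiquitin and ISG15, was at 11.7 ± 0.522 FPKM in the SK4 and 11.7 ± 0.625 FPKM in the control libraries. ARIH1, a further ligase reported to transfer ISG15, was at 1.29 ± 0.105 FPKM in the SK4 and 1.27 ± 0.217 FPKM in the control libraries. The cross-reactive proteases USP16 and USP21 had log2 fold changes of 0.070 and 0.060. USP2 and USP13 were below the filter, at 0.42 to 0.6 and 0.62 to 0.87 FPKM over all libraries. USP5 was the most abundant of these genes, at 42.8 ± 1.23 FPKM in the SK4 and 42.4 ± 0.301 FPKM in the control libraries.

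The partners of USP18 and the receptor pathway that induces these genes were likewise not called. IFNAR2, to which USP18 binds, was at 14.01, 14.1 and 14.03 FPKM in the SK4 libraries, against 13.97, 14.3 and 12.2 FPKM in the control libraries. The groups overlapped, and control replicate 3 was again the lowest. STAT2, which bridges USP18 to the receptor, had a log2 fold change of 0.074, and SKP2, part of a ubiquitin ligase for USP18, one of -0.045. Of the 9 receptor, kinase, STAT and SOCS genes, 8 were tested and 0 called, with 6 positive and a median of 0.066. SOCS1, another feedback inhibitor of interferon signalling, was at 2.25 ± 0.133 FPKM in the SK4 and 1.99 ± 0.177 FPKM in the control libraries. IRF9, the DNA-binding partner of STAT2, was below the filter at 0.32 to 0.47 FPKM in the SK4 and 0.24 to 0.39 FPKM in the control libraries. In GENCODE 29 its exons share 1838 nt with those of another protein-coding gene on the same strand. How reads common to both were counted is not given in the sources used here, so the IRF9 value may be too low.

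Of 16 genes whose proteins are reported ISG15 substrates, all tested, 0 were called, with 11 positive and a median log2 fold change of 0.034. MX1, an antiviral GTPase, had 21.9 FPKM in each of the 3 SK4 libraries, against 20.2, 20.8 and 19.6 FPKM in the control libraries. Its groups did not overlap (log2 fold change 0.11, SE 0.040; limma, adjusted p = 0.99997), and it was the only gene of the 16 of which this held, where 3.53% of all tested genes lay wholly above and 1.81% wholly below. The RNA sensor genes IFIH1 and DDX58 had log2 fold changes of 0.17 and 0.13 with overlapping groups. They were lowest in control replicate 3, as were HERC5 and HERC6, at 6.14 and 4.4 FPKM. In that library the median of all tested genes was also 0.097 lower, on the log2 scale, than the mean of the other controls. The ISRE core was found in the promoter windows of EIF2AK2, IFIH1 and MX1 among the 12 substrate genes with a window, and in that of SOCS1 among 7 receptor pathway genes. It was found in none of those of the accessory enzymes, the other modifiers or the other E1 genes.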

How the data were processed

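Gene expression was measured by poly(A)-selected, strand-specific RNA-seq (150 nt paired-end reads) in 6 libraries, whose titles gave the groups. Control replicate 3 has BHT102 in its treatment label and BHT101 in its other labels. HISAT2 and GRCh38 are named as tool and build, per the submitters' processing notes; a counting tool and annotation are not given in the sources used here. FPKM values were deposited by the authors rounded to 2 decimals. FPKM does not remove differences between libraries in the recovery of GC-rich or long transcripts.

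From these, the 11139 genes that reached 1 FPKM in 3 or more libraries were taken as log2(FPKM + 0.5), which understates changes of low genes. Groups were tested with limma 3.58.1 (R 4.3.3; trended, robust prior variance, group as the only term; Benjamini-Hochberg adjustment over all tested genes; called below 0.05), and the fit was tested on simulated data. Depth was estimated from 561 single-exon genes shorter than 160 nt, whose low values are multiples of 1 fragment (at least 99.4% whole within 0.1). Fragments per gene used the merged exon length of GENCODE 29, which matched 31726 identifiers. Counting error covers counting only. The lists were the accessory enzymes, partners of USP18, substrates, receptor pathway, other modifiers, other E1 genes, paralogs and cell type markers. The paralogs had 3 of 6 genes tested, with 0 called. The 4 fibroblast and 3 endothelial markers were below 1 FPKM. IL3RA was not analysed here. The rule for named genes took all members, KCNN4, list genes beside a member by role, and the 3 most similar genes. USP5, USP2, USP13, UBD, MX1, IFIH1, DDX58 and SUMO2 were named after their values were seen. Some list genes are counted but not reported here. Members and lists were chosen with earlier results of these data known.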

Additional observations from a re-analysis of the deposited data

How the results depend on the processing

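Across 17 alternative fits, 0 of the 6 genes were called and 0 changed direction (limma; HERC6 was not tested at a mean of at least 5 FPKM). The lowest adjusted p over these fits ranged from 0.420 for ISG15 to 0.949 for UBA7. Leaving out each library gave log2 fold changes of 0.092 to 0.12 for ISG15, 0.030 to 0.11 for UBA7, 0.055 to 0.13 for UBE2L6, 0.013 to 0.26 for HERC5, 0.0079 to 0.17 for HERC6 and 0.069 to 0.13 for USP18. UBA7 reached its lowest value, 0.0012, in another fit, with library weights. KCNN4 was the only gene called in every fit except where control replicate 3 and SK4 replicate 2 were both left out; there 3 genes were called higher and 1 lower, none of them a member; the cause was not tested. Replicate numbers did not pair the libraries: deviations of same-numbered libraries correlated at 0.31, -0.41 and -0.15, while control replicate 3 and SK4 replicate 2 correlated at 0.53. With the replicate block 1 gene was called higher, 0 lower and 0 members, as without it. Rescaling each library to a total of 1000000 multiplied levels evenly (ISG15 2850 in the SK4 and 2649 in the control libraries). The GC correction was added after seeing the data. At the lowest estimated fragment number, counting error alone was 0.664% for ISG15 and up to 4.14% for the other genes. At an unadjusted p below 0.05, the alternative fits gave 0 to 3 of the 6 genes. The count of 3 came with library weights, where 905 of the 11139 tested genes lay below that p.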
